A study of Mus musculus with 2 samples.

Results

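The genes of the respiratory chain and of ATP synthase were examined for their position relative to chromatin boundaries in mouse neurons that sense odours. The members were the protein-coding nuclear genes whose symbols begin with Ndufa, Ndufb, Ndufc, Ndufs, Ndufv, Uqcr, Cox4 to Cox8 or Atp5, together with Sdha to Sdhd, without the assembly factor genes named Ndufaf and Uqcc. They numbered 85 of the 21755 protein-coding genes annotated on chromosomes 1 to 19 and X. By symbol, 38 belonged to complex I, 4 to complex II, 8 to complex III, 18 to complex IV and 17 to complex V. The symbols are those of the annotation used and can differ from current usage, since Ndufa4 is now known as a subunit of complex IV and Cox7a2l as a factor of supercomplex assembly. Atp5s was counted in complex V by its symbol but was not taken as a subunit gene.

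Mature olfactory sensory neurons with expression of Olfr1507 (MOR28), an odorant receptor gene, were sorted by the fluorescence of the MOR28-GFP allele. They came from olfactory epithelium, and the mice were adults of both sexes on the 129P2/OlaHsd strain. There was 1 group, without treatment, of 2 biological replicates with 170000 and 220000 cells, each fixed with 1% formaldehyde for in situ Hi-C with DpnII. This assay records which pieces of DNA touch within the nucleus, and contacts across a boundary are fewer than contacts on either side of it. The authors combined both replicates before they called boundaries, so every value below is a single value for these neurons, without an error between replicates and of unknown depth, and no difference between gene groups was tested. The list has 7367 boundaries, each an interval of 5000 bp with a class and a strength, a score on an unstated scale that turns from weak to strong at 0.5. It holds no expression values, so the labelled cell type could not be checked against its marker genes.

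Oxidative phosphorylation takes place in the inner mitochondrial membrane. Complexes I and II pass electrons from NADH and succinate to ubiquinone, complex III passes them to cytochrome c and complex IV to oxygen, while complexes I, III and IV pump protons that drive ATP synthase, also called complex V. Most subunits are encoded in the nucleus by genes scattered over the chromosomes, whose promoters are known for binding sites of NRF1, of ETS factors such as GABPA, of YY1 and of the estrogen-related receptors. Neurons depend strongly on this pathway for ATP, and several subunits of complex IV come in tissue-restricted isoforms.

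Respiratory chain and ATP synthase genes had their start sites at boundaries in a higher share than protein-coding genes at large. The transcription start site (TSS) was the 5′ end of the gene model, and a gene counted as being at a boundary if its TSS fell within 10 kb of either edge of an interval or inside it. By this rule 21 of the 85 members were at boundaries (24.7%, 95% Wilson interval 16.8 to 34.8), against 2827 of the 21755 protein-coding genes (13.0%), a ratio of shares of 1.90. The Wilson intervals cover counting error only, and genes are not biological replicates. The 21 members lay at 21 different boundaries. For 7 of the members the TSS lay inside the 5000 bp interval itself, 8.24% against 3.45% of protein-coding genes. Among these was Atp5a1, the only member at a boundary on chromosome 18, whose interval ran from 77770001 to 77775000. With strong boundaries alone 18 members were counted, 21.2% against 8.39%. With windows of 5, 25 and 50 kb in place of 10 kb, 17, 33 and 50 members were counted. The share with 5 kb stood against 9.10% of protein-coding genes, the 38.8% with 25 kb against 25.0%, and the 58.8% with 50 kb against 44.0%.

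The distance from TSS to the nearest boundary midpoint showed the same shift along its range. Its median was 37.1 kb over the members (quartiles 12.7 and 79.7), against 61.1 kb over protein-coding genes (quartiles 27.5 and 111). Within 50 kb of a midpoint lay 58.8% of the members, against 42.2% of protein-coding genes, and within 100 kb 80.0% against 71.4%. Since the list gives intervals of 5000 bp, distances below 2.5 kb are not resolved from one another.

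**Figure D1:**
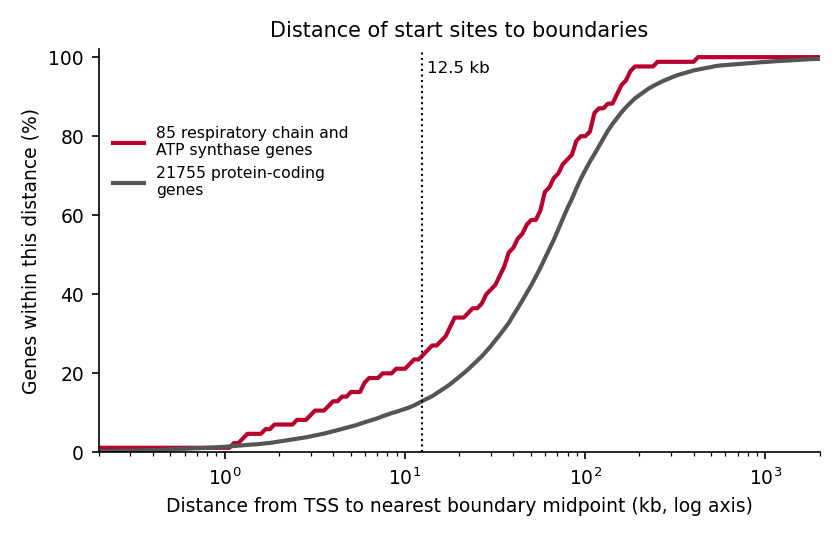
Cumulative share of genes (%, vertical axis) by the distance of their TSS to the nearest boundary midpoint (kb, log axis), for the 85 members in red and the 21755 protein-coding genes in grey. The dotted line marks 12.5 kb, the reach of the boundary window from its midpoint, where the members stand at 24.7% and protein-coding genes at 13.0%.

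No difference between complexes is claimed from counts this small. Complex IV had 8 of 18 members at boundaries (44.4%, 95% Wilson interval 24.6 to 66.3), complex III 3 of 8 (37.5%, interval 13.7 to 69.4), complex II 2 of 4 (interval 15.0% to 85.0%) and complex V 3 of 17 (17.6%, interval 6.19 to 41.0). Complex I, with the most members, had 5 of 38 (13.2%, interval 5.75 to 27.3), close to the 13.0% of protein-coding genes. That position depended on the window, with 0 of 38 against 3.45% for the interval alone, 5.26% against 9.10% with 5 kb and 31.6% against 25.0% with 25 kb. The intervals of the 5 complexes overlapped one another, and those of complexes I and V held the 13.0%. Median distances were 38.9 kb for complex I, 18.2 kb for complex II, 29.8 kb for complex III, 40.4 kb for complex IV and 38.4 kb for complex V.

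**Figure D2:**
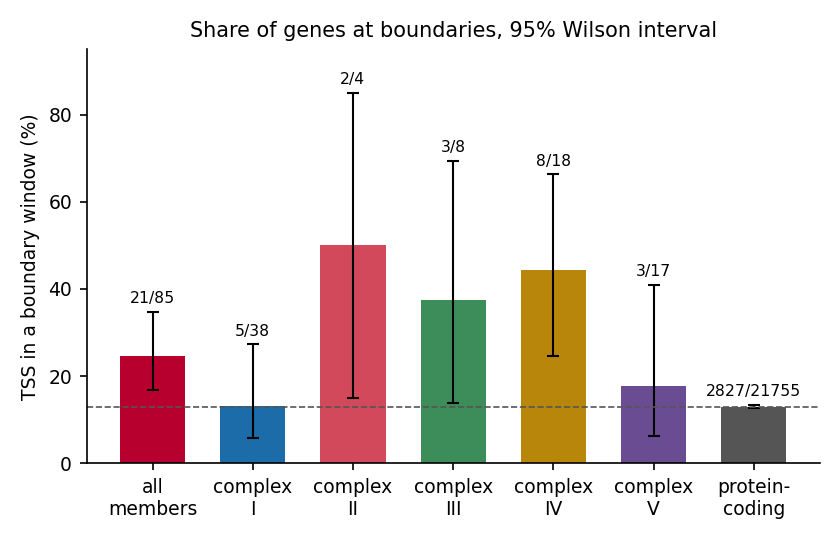
Share of genes with a TSS in a boundary window (%, vertical axis) for all members, for each complex and for protein-coding genes; bars are shares, error bars 95% Wilson intervals, labels counts, and the dashed line the 13.0% of protein-coding genes. Complex I stands at the dashed line and the interval of complex IV begins at 24.6%.

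**Figure D3:**
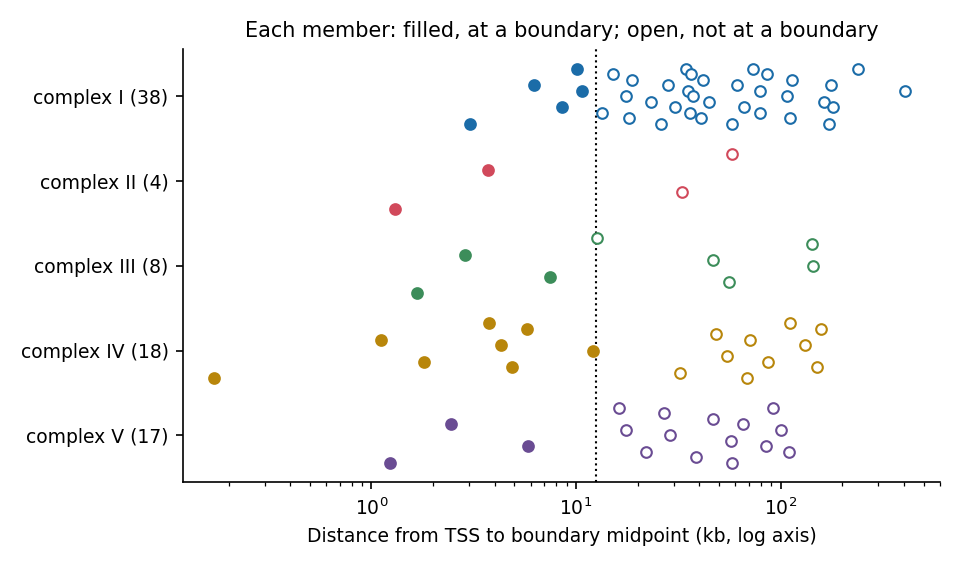
Distance of each member's TSS to the boundary midpoint (kb, log axis) by complex, with the number of members in brackets and vertical scatter for legibility only. Filled points are the 21 members at boundaries and open points the others; the dotted line marks 12.5 kb, and no complex I gene lies below 3.02 kb.

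The boundaries at these genes were mostly strong. Of the 21, 18 were strong (85.7%), against 64.1% of the 2145 boundaries with any protein-coding TSS in the window and 4052 of all 7367. Their median strength was 0.786 (95% interval 0.590 to 1.31 from the binomial distribution), against 0.689 for the boundaries with a protein-coding TSS and 0.563 for the whole list. The direction turned with the interval alone, where the median was 0.590 over 7 boundaries at members, against 0.665 over 657 boundaries with a protein-coding TSS. The range ran from 0.383 at Cox6c to 2.02 at Ndufs1. The 1842 strongest boundaries of the list took in 10 of the 21, so that 11.8% of the 85 members were at one, against 3.97% of protein-coding genes, and 47.6% of members at boundaries lay at such a boundary, against 30.6% of protein-coding genes at boundaries. The highest strengths were at a complex I and a complex V gene, while all 3 weak boundaries were at complex IV genes.

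**Figure D4:**
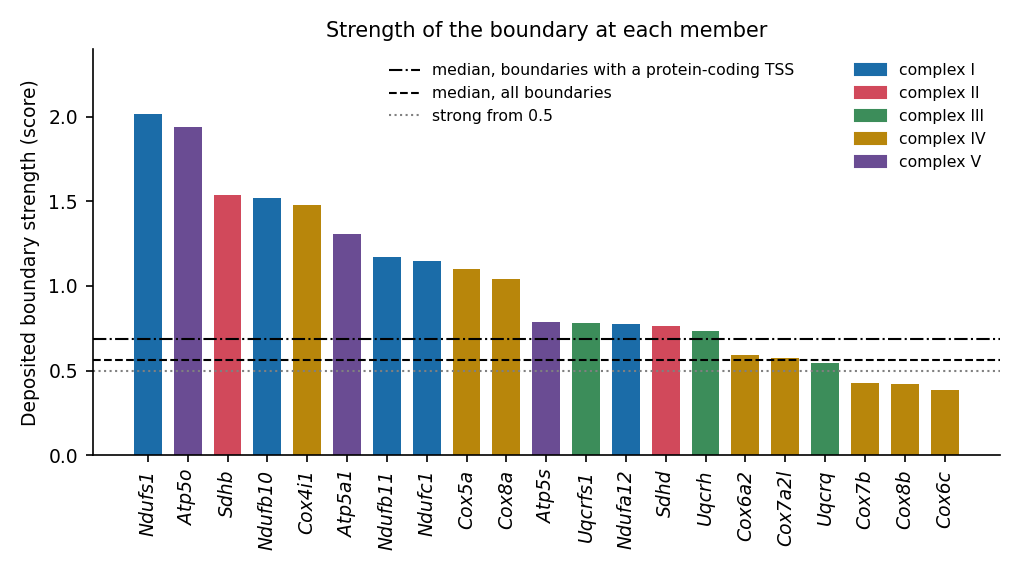
Deposited strength (score, vertical axis from 0) of the boundary at each of the 21 members, ordered by strength and coloured by complex. Horizontal lines mark the median of boundaries with a protein-coding TSS (0.689), the median of all boundaries (0.563) and the turn from weak to strong (0.5); Ndufs1 and Atp5o stand highest and Cox7b, Cox8b and Cox6c are weak.

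Complex I takes electrons from NADH, and its members at boundaries were 1 core gene and 4 accessory genes. Ndufs1, which encodes the largest core subunit with several iron-sulfur clusters, lay on chromosome 1 at 63143596 to 63176833 on the reverse strand. Its boundary, at 63185001 to 63190000, had a strength of 2.02, the 97.1th percentile of the list, and lay 10.7 kb upstream of the TSS, over the gene Gpr1. The TSS of Eef1b2, a translation elongation factor gene, was the other protein-coding one in that window. The accessory gene Ndufb10 lay on chromosome 17 at 24722060 to 24724478, 3.02 kb from a boundary of strength 1.52 at 24725001 to 24730000. That window also held the TSSs of Msrb1, Rnf151, Rpl3l and Rps2, the last a gene of the small ribosomal subunit. Of the other accessory genes, Ndufb11 on the X chromosome lay 10.1 kb from a boundary of strength 1.17, Ndufc1 on chromosome 3 lay 8.51 kb from one of 1.15, and Ndufa12 on chromosome 10 lay 6.22 kb from one of 0.773. All 5 complex I boundaries were strong and none contained its gene's TSS.

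Core and accessory genes of complex I were at boundaries in shares near the 13.0% of protein-coding genes, which is no result about either. Of 7 core genes, which carry the flavin and the iron-sulfur clusters or the quinone site, only Ndufs1 was at a boundary (14.3%), and of 29 accessory genes 4 were (13.8%). Ndufs7 lay just outside the window of a boundary of 0.201, 13.4 kb away, and Ndufs3, Ndufs8, Ndufv1 and Ndufv2 lay 163, 180, 79.7 and 25.9 kb from theirs. The farthest members of all were complex I genes by symbol. Ndufa3 lay 405 kb from its nearest boundary in an interval of 870 kb, Ndufa4 240 kb, Ndufs8 180 kb, Ndufb3 176 kb and Ndufa4l2, a gene known to be induced by hypoxia, 172 kb. Ndufa2 had the strongest nearest boundary of any member, 2.68, at 72.9 kb.

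Complex II, succinate dehydrogenase, belongs to the citric acid cycle as well as to the respiratory chain. Of its genes, Sdhb, for the iron-sulfur subunit, lay on chromosome 4 at 140961203 to 140979193, 3.70 kb from a boundary of strength 1.54 at 140955001 to 140960000 that overlapped no protein-coding gene. Sdhd, for a small membrane anchor subunit, lay on chromosome 9 at 50596357 to 50603812, with its TSS inside a boundary of strength 0.762 at 50600001 to 50605000. Sdha, for the flavoprotein, and Sdhc, for the other anchor subunit, lay 32.8 and 58.1 kb from boundaries of 1.44 and 0.837. The promoters of both genes at boundaries are shown because they carry matches to motifs known from respiratory genes. Each runs from 250 bases before to 50 after the RefSeq TSS of build GRCm38.p6, 5′ to 3′ on the gene's strand, with motif matches in capitals.
Sdhd, chr9:50603800-50604099, reverse strand: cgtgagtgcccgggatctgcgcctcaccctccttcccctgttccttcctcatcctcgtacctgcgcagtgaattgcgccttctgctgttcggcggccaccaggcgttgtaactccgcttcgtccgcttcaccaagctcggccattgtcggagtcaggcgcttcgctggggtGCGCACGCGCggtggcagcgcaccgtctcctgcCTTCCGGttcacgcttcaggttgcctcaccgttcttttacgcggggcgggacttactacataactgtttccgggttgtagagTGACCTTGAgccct
Sdhb, chr4:140961021-140961320, forward strand: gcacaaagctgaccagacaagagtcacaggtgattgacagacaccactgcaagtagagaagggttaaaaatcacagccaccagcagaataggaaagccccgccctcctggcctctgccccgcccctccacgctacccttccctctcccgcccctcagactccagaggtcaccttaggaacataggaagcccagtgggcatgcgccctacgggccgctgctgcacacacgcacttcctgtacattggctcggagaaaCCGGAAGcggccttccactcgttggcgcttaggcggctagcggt
The Sdhd promoter held matches to the NRF1, ETS and ERR motifs in this order, the NRF1 match beginning 79 bases and the ETS match 46 bases before the TSS and the ERR match 36 bases after it. That promoter is divergent, with the TSS of Timm8b, a gene of the mitochondrial protein import machinery, 98 bp away on the opposite strand. The Sdhb promoter held 1 ETS match, beginning 6 bases after the TSS.

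Complex III passes electrons to cytochrome c, and 3 of its 8 genes were at boundaries (37.5%), against 13.0% of protein-coding genes. All 3 boundaries were strong. Uqcrq, for a small subunit, had its TSS inside a boundary of 0.547 on chromosome 11, at 53430001 to 53435000. Uqcrfs1, for the Rieske iron-sulfur protein, lay on chromosome 13 at 30540308 to 30545362, and its boundary of 0.784 at 30540001 to 30545000 covered nearly the whole gene. Its window held no other protein-coding TSS, and none lay within 100 kb. Uqcrh, for the hinge protein, lay 7.43 kb from a boundary of 0.732 that overlapped Lrrc41, its divergent neighbour. Uqcrc2, for a core protein, lay just outside the window, 12.7 kb from a boundary of 2.30, while Uqcrc1, the other core protein gene, lay 55.9 kb from a weak one of 0.253. Uqcr10 lay at 46.8 kb, and Uqcrb and Uqcr11 at 142 and 144 kb. The Uqcrb interval of 1915 kb was the longest that held a member.

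Complex IV, cytochrome c oxidase, passes electrons to oxygen. In the 10 kb window 8 of its 18 members were at boundaries (44.4%), against 13.0% of protein-coding genes. With 25 kb it had 8 (44.4%) and complex I 12 (31.6%), against 25.0% of protein-coding genes. With 50 kb it had 10 (55.6%) and complex I 22 (57.9%), against 44.0%. The 1842 strongest boundaries took in 3 genes of complex IV (16.7%) and 4 of complex I (10.5%), against 3.97%. Strong boundaries alone took in 5 of each (27.8% and 13.2%), against 8.39%. Of 10 complex IV genes for subunits without a tissue-restricted pattern, 5 were at boundaries in the 10 kb window (interval 23.7% to 76.3%). Cox4i1, for the largest nuclear-encoded subunit, lay on chromosome 8 at 120668222 to 120674207, 4.28 kb from a boundary of 1.48 at 120670001 to 120675000, over the downstream part of the gene. That window also held the TSSs of Emc8 and of the gene model Gm27021. Cox5a on chromosome 9 and Cox8a on chromosome 19 lay 3.77 and 4.88 kb from strong boundaries of 1.10 and 1.04, both upstream of the gene and over no protein-coding gene. Cox6c lay 5.75 kb from the weakest boundary at any member, 0.383, and Cox7b on the X chromosome had its TSS in a weak one of 0.428. Cox7a2l had its TSS inside a boundary of 0.572 on chromosome 17, 0.17 kb from the midpoint. Its RefSeq TSS lay 2997 bp inside the gene model and 3.17 kb from that midpoint, still in the window.

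The tissue-restricted isoforms of complex IV did not share 1 position. Of the 7 genes, 2 were at boundaries (28.6%, 95% Wilson interval 8.22 to 64.1), against 13.0% of protein-coding genes. The interval held that 13.0%, so the count is no result about the isoforms. Both encode isoforms of heart and skeletal muscle. Cox6a2 had its TSS inside a boundary of 0.590 on chromosome 7, at 128205001 to 128210000, while its widely expressed counterpart Cox6a1 lay 111 kb from a boundary of 0.917. Cox8b lay 12.1 kb from a weak boundary of 0.420, near the edge of the window, while its widely expressed counterpart Cox8a was at a strong one and the testis isoform gene Cox8c lay 157 kb away. Cox7a1, of muscle, lay at 48.4 kb and its counterpart Cox7a2 at 32.4 kb. Cox6b2, of testis, lay at 54.4 kb and Cox6b1 at 68.7 kb. Cox4i2, of lung, lay at 86.7 kb and Cox4i1 was at a boundary, and Cox7b2 lay at 151 kb with Cox7b at a boundary.
The Cox8 promoters are shown for contrast, since Cox8a had a ratio of observed to expected CpG of 0.842 with 2 ETS matches, in capitals, and Cox8b one of 0.115 with no match to any of the motifs searched.
Cox8a, chr19:7217567-7217866, reverse strand: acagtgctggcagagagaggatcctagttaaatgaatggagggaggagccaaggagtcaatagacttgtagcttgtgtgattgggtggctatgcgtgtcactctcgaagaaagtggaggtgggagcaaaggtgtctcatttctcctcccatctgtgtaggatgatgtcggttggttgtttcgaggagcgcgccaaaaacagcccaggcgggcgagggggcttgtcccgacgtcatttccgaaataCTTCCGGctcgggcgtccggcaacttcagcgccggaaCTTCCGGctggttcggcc
Cox8b, chr7:140900397-140900696, reverse strand: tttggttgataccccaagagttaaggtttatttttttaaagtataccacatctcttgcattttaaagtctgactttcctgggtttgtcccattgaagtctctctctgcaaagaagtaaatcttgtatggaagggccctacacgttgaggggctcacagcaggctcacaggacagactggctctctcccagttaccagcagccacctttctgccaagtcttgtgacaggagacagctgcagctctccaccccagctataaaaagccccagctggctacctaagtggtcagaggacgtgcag

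Complex V, ATP synthase, had 3 of 17 genes at boundaries (17.6%), against 13.0% of protein-coding genes. All 3 boundaries were strong. Atp5a1, for the alpha subunit of the catalytic F1 part, had its TSS inside a boundary of 1.31, which also overlapped Haus1. It was the only one of 5 F1 genes at a boundary, and Atp5b, for the catalytic beta subunit, lay 65.8 kb away. Atp5o, for the stalk protein that confers oligomycin sensitivity, lay on chromosome 16 at 91925214 to 91931687, 5.81 kb from a boundary of 1.94 at 91935001 to 91940000, the 96.4th percentile of the list. Atp5s, for coupling factor B and in complex V by symbol only, had its TSS inside a boundary of 0.786 on chromosome 12. None of the 3 genes for subunit c was at a boundary (interval 0% to 56.1%). Their distances were 58.2 kb for Atp5g1, 85.1 kb for Atp5g2 and 16.2 kb for Atp5g3. The intervals of the F1 and subunit c genes both held the 13.0%, so neither count is a result about those genes. Of the members just outside the window, Atp5g3 and Atp5f1 (17.6 kb) belong to this complex and Ndufb2 (15.1 kb) to complex I.
The Atp5o promoter is shown because its gene was at the strongest boundary among members whose promoter was in the RefSeq table. The capitals mark an NRF1 match that begins 9 bases after the TSS.
Atp5o, chr16:91931581-91931880, reverse strand: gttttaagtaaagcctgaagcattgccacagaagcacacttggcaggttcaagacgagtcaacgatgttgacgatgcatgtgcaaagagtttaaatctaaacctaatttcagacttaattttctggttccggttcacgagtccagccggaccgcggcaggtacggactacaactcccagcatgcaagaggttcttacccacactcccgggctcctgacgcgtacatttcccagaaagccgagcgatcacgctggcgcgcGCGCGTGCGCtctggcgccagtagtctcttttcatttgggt

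Matches to the motifs of respiratory gene regulators were more frequent in members' promoters than in those of protein-coding genes. RefSeq promoters were found for 67 members and 16449 protein-coding genes. On either strand, the NRF1 motif with any base at its middle position matched 16 member promoters (23.9%), against 6.95% of all, and its stricter form, which is contained in it, 5 (7.46%), against 1.39%. The ETS motif CCGGAAG matched 15 (22.4%), against 12.4%, YY1 (AAGATGGCG) matched 6 (8.96%), against 2.03%, and ERR (TCAAGGTCA) matched 2 (2.99%), against 0.334%. Among the 14 members at boundaries with a promoter sequence, 2 had an NRF1, 4 an ETS, 1 a YY1 and 1 an ERR match, and among the 53 away from boundaries 14, 11, 5 and 1 had them. A match is a description of sequence and not a measured binding site. The NRF1, ETS and YY1 motifs contain CpG, and the promoters compared were not matched for CpG content, which differed as given below. The part of CpG content in these shares was not tested. Ndufc1 held the YY1 match of the members at boundaries, beginning 22 bases after its TSS.
Ndufc1, chr3:51408906-51409205, reverse strand: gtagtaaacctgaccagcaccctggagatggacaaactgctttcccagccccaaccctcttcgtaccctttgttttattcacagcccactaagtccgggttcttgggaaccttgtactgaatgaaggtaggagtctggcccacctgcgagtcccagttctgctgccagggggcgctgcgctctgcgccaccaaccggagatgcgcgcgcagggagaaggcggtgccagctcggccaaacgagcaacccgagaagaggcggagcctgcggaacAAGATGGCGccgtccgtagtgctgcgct

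Members also differed from protein-coding genes in features that go with boundaries. A promoter was called CpG-rich when its ratio of observed to expected CpG was at least 0.6, and 54 of the 67 member promoters were (80.6%), against 50.4% of all. Within CpG-rich promoters 10 of 54 members were at boundaries (18.5%, 95% Wilson interval 10.4 to 30.8), against 16.9% of such protein-coding genes. Within the other promoters 4 of 13 members were, namely Cox7b, Cox8b, Ndufb11 and Sdhb (30.8%, interval 12.7 to 57.6), against 9.49%. Of these 4, Ndufb11 (0.596) and Sdhb (0.571) lay just below the cut, and Cox7b (0.368) and Cox8b (0.115) farther below. Over all members with a promoter sequence the share was 20.9%, against 13.2%. Of the 18 members without one, 7 were at boundaries (38.9%, interval 20.3 to 61.4). Protein-coding genes as a whole, with or without a promoter sequence, stood at 13.0%. The 7 members were Atp5a1, Atp5s, Cox4i1, Cox6a2, Cox6c, Ndufs1 and Uqcrq, and the CpG content of their promoters was not used here. The part of CpG content in the members' share was not tested.

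Members often had a neighbour on the opposite strand and lay among more genes. A protein-coding TSS lay on the opposite strand within 1 kb upstream of 19 members (22.4%), against 6.84% of protein-coding genes. Such divergent members were at boundaries in 5 of 19 cases (26.3%), against 19.4% of divergent protein-coding genes, and the others in 16 of 66 (24.2%), against 12.5%. Sdhd, Uqcrq, Cox4i1 and Uqcrh were among the divergent members at boundaries. The median number of other protein-coding TSSs within 100 kb was 4 for members, at and away from boundaries alike, against 3 for protein-coding genes. Of members with at least 4 such neighbours 22.6% were at boundaries (12 of 53), against 12.3% of protein-coding genes, and of members with fewer 28.1% (9 of 32), against 13.7%. Of the 21 members at boundaries, 12 shared the window with the TSS of another gene (57.1%), against 43.2% of protein-coding genes at boundaries.

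Members were short genes, and their boundaries lay more often on the upstream side. The median gene model was 7.28 kb long, against 17.4 kb. The gene model of 11 members overlapped a boundary interval (12.9%), against 15.6% of protein-coding genes. Atp5f1 was the only one of the 11 whose TSS was not in the window. The boundary midpoint lay upstream of the TSS for 15 of the 21 members at boundaries (71.4%), against 54.8% of protein-coding genes at boundaries. For 7 of the 21 the TSS lay inside the interval, where its 5000 bp do not resolve the side. The interval between neighbouring boundaries that held the TSS had a median length of 240 kb (quartiles 195 and 315), against 280 kb (quartiles 195 and 410).

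Matches to the 12-base motif of CTCF, a protein known to hold many boundaries, were about as frequent at members' boundaries as at others with a gene start. A match lay in the widened window of 6 of the 21 boundaries (28.6%), against 27.0% of those with a protein-coding TSS and 23.9% of all. The 6 were at Ndufs1, with 4 matches, Uqcrfs1, with 2, and Atp5o, Atp5a1, Atp5s and Cox7b, with 1 each. The sites at Atp5o and Cox7b, which lay -2.15 and 1.46 kb from the boundary midpoint (negative towards lower coordinates), are shown on the strand of the motif with its bases in capitals, and the coordinates (GRCm38.p6) are those of the capitals.
Atp5o site, chr16:91935341-91935352, reverse strand: acctgcgtgCCAGCAGAGGGCgtcagatcc
Cox7b site, chrX:106018956-106018967, forward strand: tcaggcacaCCAGCAGGGGGCatcagatcc

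Few members lay near one another, and some neighbouring members were parted by boundaries. Ndufs8 and Ndufv1, 100 kb apart on chromosome 19, had no boundary between them and shared an interval of 365 kb. On chromosome 10, Atp5d and Ndufs7 were 110 kb apart with a boundary of 1.12 between them, and Ndufs7 and Uqcr11 were 158 kb apart with one of 0.201, close to the lowest in the list. On chromosome 7, Cox7a1 and Cox6b1 were 442 kb apart with 2 boundaries between them, of 0.570 and 0.578. Most members had no other member in the same interval.

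The other genes of the pathway were counted in 4 lists, to be read against the 13.0% and the median distance of 61.1 kb of protein-coding genes. The intervals of the citric acid cycle, carrier and regulator lists held that 13.0%. Among 47 assembly factor genes 13 were at boundaries (27.7%, 95% Wilson interval 16.9 to 41.8), with a median distance of 38.4 kb. The strongest were at Timmdc1 (1.44), Ndufaf2 (1.23) and Ttc19 (1.07), and 7 of the 13 were weak. Among 14 citric acid cycle genes 4 were (28.6%, interval 11.7 to 54.6), namely Dlst (0.949), Dld (0.648), Mdh2 (0.610) and Idh2, at a weak boundary (0.433). Among 17 genes of mobile carriers, translocators and ubiquinone synthesis 2 were (11.8%, interval 3.29 to 34.3), Cyct, the cytochrome c gene of testis (1.81), and Coq7, at a weak boundary (0.255). Among 13 regulators 2 were (15.4%, interval 4.33 to 42.2). These were Tfam (1.23) and Tfb1m (2.52), the genes of a packaging and transcription factor of mitochondrial DNA and of a mitochondrial ribosomal RNA methyltransferase. Nrf1, Gabpa, Yy1 and Esrra were not at boundaries.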

How the data were processed

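Sorted neurons of 1 group, in 2 biological replicates, went through in situ Hi-C. The authors deposited a list of boundaries called on the GRCm38 contact matrix of both replicates combined, per the series design text. Its strength column is a score that the authors deposited without stating a scale, and it was used only within the list. Strength began at 0.2, and every strong boundary was at or above 0.5. Names of the boundary caller and aligner, and the caller's window, were not given in the sources used here. Read pairs are not in the list, so depth is unknown and no replicate could be left out.

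Boundaries were joined to GENCODE gene models (release M21) and RefSeq promoters, both of GRCm38. The shortest model was used where a symbol had several, which touched Atp5o alone. The members and lists were chosen with earlier results of these data known. Named genes were all members at boundaries, those just outside the window, the 5 farthest, isoform pairs, and genes at the 5 strongest boundaries; others were chosen after their values were seen. Alternatives were other windows, strong boundaries alone, the 1842 strongest, merged boundaries, other TSSs or models, and fewer members. Python 3.11.15, pandas 2.3.3 and scipy 1.17.1 were used, and the lookups were tested on simulated boundaries. Some results on single genes are not reported here.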

Additional observations from a re-analysis of the deposited data

How the results depend on the processing

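The members' share at boundaries was above that of protein-coding genes under all 12 alternatives run, with ratios of shares from 1.34 to 2.96. These alternatives drew on the same pooled list and the same members or a part of them, so they are not independent of one another. The longest model and the merged boundaries again gave 21 members. The count of 21 moved by more than 1.5 times to 7 with the interval alone, 33 with 25 kb and 50 with 50 kb on each side, and 10 with the 1842 strongest boundaries, since fewer or more positions were counted. Complex I fell to 0 of 38 with the interval alone and 2 with 5 kb, and had 12 with 25 kb and 22 with 50 kb. Its share was thus below that of protein-coding genes with the narrow windows (0 against 3.45%, and 5.26% against 9.10%) and above with the wide ones (31.6% against 25.0%, and 57.9% against 44.0%). With the interval alone complex II had 1 (25.0%), complex III 1 (12.5%) and complex IV 3 (16.7%), against 3.45% of protein-coding genes. With the 1842 strongest boundaries complex II had 1 (25.0%), complex III 0 and complex IV 3 (16.7%), against 3.97%. Strong boundaries alone gave complex IV 5 (27.8%), against 8.39%. Complex V had 7 with 25 kb (41.2%), against 25.0%. At 50 kb complex V had 10 (58.8%) and complex III 5 (62.5%), against 44.0%. With the TSS of any protein-coding transcript complex I had 13.2%, against 14.7%. The median distance was 227 kb to the 1842 strongest boundaries, against 281 kb for protein-coding genes. RefSeq start sites, an alternative chosen after seeing the data, gave 14 of 67 members (20.9%) against 13.2%. Without the tissue-restricted isoforms and the symbols that are not subunits, here Atp5s and Cox7a2l, 17 of 76 members were counted (22.4%), against 13.0%. The order of median strengths turned with the interval alone (0.590 against 0.665) and held with 25 kb (0.896 against 0.694). Complex IV had 8 with 25 kb (44.4%, against 25.0%) and 10 with 50 kb. Its 55.6% with 50 kb, against 44.0%, was the lowest share of the 5 complexes. No paired analysis was possible because both replicates belong to 1 group and were combined before the boundaries were called. The unknown depth and the 5000 bp intervals limit what can be said of weak boundaries and of short distances.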
